A study of Mus musculus with 6 samples.

Results

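Collagens are the main structural proteins of the extracellular matrix. Each molecule is built from 3 polypeptide chains, and every chain is the product of a gene of its own whose symbol gives the collagen type and the chain. The chain genes were taken as all probe sets (groups of short oligonucleotides on the array that report the same transcript) that the platform annotation pairs with a single gene symbol of the form Col, type number, a, chain number. This gave 82 probe sets of 42 genes, out of 18193 genes measured by a single-symbol probe set and out of 45037 probe sets tested. By the known assembly of their proteins, 21 probe sets of 11 genes belonged to fibrillar collagens, 12 probe sets of 6 genes to basement membrane collagen and 49 probe sets of 25 genes to all other types. A gene had more than 1 probe set in 27 of the 42 cases. Of the 82 probe sets, 23 were dim, meaning that their mean over the 6 arrays lay under the 40th percentile of all probe sets (4.98 on the log2 scale). All of the probe sets of Col4a3, Col6a5, Col10a1, Col17a1 and Col24a1 were dim, which makes 5 genes.

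Fibrillar collagens, among them types I, III and V, form the cable-like fibrils of connective tissue. Type IV collagen is the sheet-forming collagen of basement membranes, the layers on which endothelial and epithelial cells rest. In the brain, collagen is concentrated in the meninges and the walls of blood vessels, while the tissue between the neurons holds little of it. The remaining types include beaded filament collagens, fibril-associated collagens with interrupted triple helices (FACIT), short-chain network collagens and transmembrane collagens, some of which are made by neurons.

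The series asked how testosterone propionate, an ester of the male sex hormone testosterone, alters gene expression in the brain of newborn mice, with the emphasis of its title on females. C57BL/6 mice, called C57BL/6J in the treatment protocol, received 1 mg of testosterone propionate (TP) in 20 µL of sesame oil by intraperitoneal injection on postnatal day 2, or 20 µL of sesame oil alone (vehicle). Whole brains were taken on postnatal day 6, and the RNA of 6 mice was pooled for each array. There were 2 arrays of TP females, 2 of vehicle females, 1 of TP males and 1 of vehicle males. In either treatment, the label of the second female array names it a replica of the first. Nothing states that the replicas were made from other mice, so p-values measure the spread between these arrays, which may be technical.

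The array values were log2 expression levels whose array medians lay between 5.69 and 5.74. Their scale has no unit that compares one probe set with another, so differences were read between arrays. Levels of different probe sets were set side by side for the dim limit and to choose the brightest probe set of a gene. They were also added up in the summed levels of lists, where the brightest probe sets weigh most. All 10 measured genes of 11 defining markers of brain (such as Snap25 at 12.1 to 12.3) were well above the dim limit. The RNA of Xist, the X-linked RNA of the inactive X chromosome, went against 1 label. It read 12.6 to 12.8 on the female arrays, 5.29 on the array of vehicle males and 10.4 on the array labelled TP males, where the Y-linked gene Eif2s3y read 9.12, close to the 9.16 of vehicle males. In the fit over both sexes, leaving out either male array returns the female difference, since the sex term takes up the male array that remains. The female difference is therefore given beside the values over both sexes that the results turn on. In whole brain, fewer cells of a type and less RNA per cell cannot be told apart.

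No collagen probe set passed the test in any of the 4 comparisons. The test was limma's moderated test with Benjamini-Hochberg adjustment over all 45037 probe sets, at an adjusted p under 0.05. For TP against vehicle in females it called 5 probe sets in all (0.0111%), and 0 of the 82 collagen probe sets, with a smallest adjusted p of 0.525. Over both sexes, with sex as a term, it called 4 (0.00888%) and 0 of 82, with a smallest adjusted p of 0.181. For males against females, with treatment as a term, it called 10 (0.0222%) and 0 of 82, with a smallest adjusted p of 0.305. The difference between the TP effects of the sexes was called in 7 probe sets (0.0155%) and in 0 of 82 collagens, with adjusted p = 1 throughout. At an unadjusted p under 0.05, the collagen counts were 9 in females (11%, against 8.13% of all probe sets), 14 over both sexes (17.1%, against 12.3%), 8 between the sexes (9.76%, against 12.1%) and 7 for the difference between effects (8.54%, against 4.93%).

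More collagen probe sets read lower than higher after TP, by small amounts. In females the median log2 difference of TP minus vehicle was -0.051 over the 82 collagen probe sets and -0.012 over all probe sets, and 50 of 82 differences were negative (61.0%, against 54.0% of all). Both TP arrays lay below both vehicle arrays for 24 collagen probe sets (29.3%, against 21.3% of all) and above them for 10 (12.2%, against 17.1% of all). Over both sexes the median was -0.076, against -0.016 for all probe sets, and 59 of 82 differences were negative (72.0%, against 55.8%). All 3 TP arrays lay below all 3 vehicle arrays for 12 collagen probe sets (14.6%, against 8.35% of all) and above them for 0 (against 6.83% of all). Without the array labelled TP males the fit over both sexes returned the female median of -0.051, and the 12 probe sets, which ran from -0.42 to -0.16 with all arrays, ran from -0.42 to -0.09. For 1 of these 12, Col18a1 1426955_at, the value was over 1.5 times smaller without it.

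**Figure D1:**
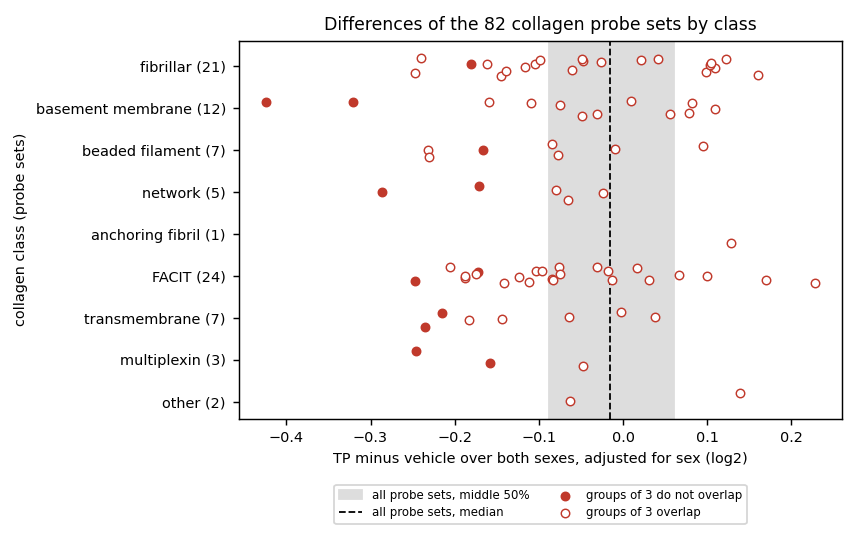
TP minus vehicle over both sexes, adjusted for sex, in log2 units (x axis) for the 82 collagen probe sets by structural class (y axis, number of probe sets in brackets). Filled points mark the 12 probe sets whose 3 TP arrays all lie below the 3 vehicle arrays, the grey band the middle 50% of all 45037 probe sets and the dashed line their median of -0.016; filled points occur in 7 of the 9 classes.

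Over both sexes the widest differences were those of the type IV chains Col4a5 and Col4a4. The promoters of Col4a5 and Col4a6 are shown because these genes are neighbours that start back to back on the X chromosome. Col4a6 itself gave 0.11 and 0.08 over both sexes. The starts of Col4a1 and Col4a2 on chromosome 8 also lie back to back, with 22 bases of overlap in RefSeq. Col4a5 and Col4a6 encode the alpha5 and alpha6 chains, and they are transcribed away from each other, with 1342 bases between their start sites in the RefSeq annotation of GRCm38.p6. The windows hold the 250 bases before each start, at chrX:141475169-141475418 on the plus strand for Col4a5 and chrX:141474077-141474326 on the minus strand for Col4a6. Capitals mark 3 promoter motifs, searched on both strands. The TATA box was searched as the letters TATAAA. The CCAAT box was searched as the letters of its name. For the GC box, a site of factors such as Sp1, the letters were GGGCGG.
Col4a5: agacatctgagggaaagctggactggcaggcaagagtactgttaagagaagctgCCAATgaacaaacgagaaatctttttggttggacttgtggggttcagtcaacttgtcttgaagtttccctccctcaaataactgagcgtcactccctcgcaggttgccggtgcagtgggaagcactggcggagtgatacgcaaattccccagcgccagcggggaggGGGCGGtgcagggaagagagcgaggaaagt
Col4a6: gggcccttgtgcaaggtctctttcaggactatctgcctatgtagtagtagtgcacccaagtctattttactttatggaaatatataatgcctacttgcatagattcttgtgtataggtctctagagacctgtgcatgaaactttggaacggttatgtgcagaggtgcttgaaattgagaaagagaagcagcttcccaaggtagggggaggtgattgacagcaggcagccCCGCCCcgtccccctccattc

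The Col4a5 window holds a CCAAT box 196 bases and a GC box 30 bases before the start, and the Col4a6 window a GC box 21 bases before it. RefSeq's promoter table held 36 windows for 33 of the 42 collagen genes. The GC box occurred in 21 of these windows (58.3%, against 32.7% of all 32851 windows), the CCAAT box in 13 (36.1%, against 33.8%) and the TATA box in 5 (13.9%, against 12.4%). The androgen receptor binds DNA through repeats of AGAACA, and this motif was found in 2 collagen windows, those of Col9a1 and Col20a1 (5.56%, against 16.1% of all). The full palindrome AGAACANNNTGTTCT was in 0 of the 36 and in 3 of all windows. Neither was in the 4 windows printed here. These matches describe the letters of the windows only.

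Col4a5 gave the smallest p of all collagen probe sets over both sexes. Its probe set 1425475_at read 6.24 and 6.26 on the vehicle female arrays, 5.86 and 5.79 on the TP female arrays, 6.25 on the vehicle male array and 5.83 on the array labelled TP males. The 3 TP arrays thus lay well below the 3 vehicle arrays, and the gap was nearly the same in either sex. TP minus vehicle was -0.42 (SE 0.06, 95% interval -0.57 to -0.28, adjusted p = 0.181), a ratio of 0.745, which ranked 37th of 45037 probe sets by p. Without the array labelled TP males it was -0.42 (SE 0.08, adjusted p = 0.525). The adjusted p over all other settings ran from 0.0511 to 0.525. A further Col4a5 probe set, 1425476_at, read 7.23 and 7.49 in vehicle females, 7.25 and 7.32 in TP females, 7.16 in vehicle males and 7.35 in the array labelled TP males. Here the groups overlapped and the difference over both sexes was 0.01 (SE 0.09), so the probe sets of this gene did not read alike.

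Col4a6 differed in the other direction in females. Its probe set 1421006_at read 5.47 and 5.35 on the vehicle female arrays, 5.66 and 5.62 on the TP female arrays, 5.89 on the vehicle male array and 5.77 on the array labelled TP males. Both TP females lay above both vehicle females, whereas the array labelled TP males lay below vehicle males. The female difference was 0.23 (SE 0.09, adjusted p = 0.597), that over both sexes 0.11 (SE 0.09, adjusted p = 0.647). The other Col4a6 probe set, 1421007_at, gave 0.13 in females (SE 0.14) with overlapping arrays.

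Col4a4 encodes the alpha4 chain, which joins alpha3 and alpha5 in the type IV network of the kidney filter and the inner ear. Its probe set 1445328_at read 5.61 and 5.45 in vehicle females, 5.25 and 5.17 in TP females, 5.42 in vehicle males and 5.10 in the array labelled TP males. Every TP array was below every vehicle array. The difference over both sexes was -0.32 (SE 0.07, 95% interval -0.48 to -0.16, adjusted p = 0.238), and in females alone -0.32 (SE 0.09, adjusted p = 0.546). Its other probe sets were dim and gave 0.06 and -0.05. Both probe sets of Col4a3, the alpha3 chain, were dim as well, with differences of -0.03 and 0.08.

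The alpha1 and alpha2 chains, encoded by Col4a1 and Col4a2, form the network found in nearly all basement membranes, including those of brain vessels. For Col4a1, probe set 1452035_at read 9.36 and 9.48 in vehicle females, 9.38 and 9.38 in TP females, 9.36 in vehicle males and 9.21 in the array labelled TP males. The TP and vehicle arrays overlapped in females, and the lowest value was that of the array labelled TP males. Its difference was -0.08 over both sexes (SE 0.07) and -0.04 in females, and the further probe set 1426348_at gave -0.16 (SE 0.07) and -0.11. Col4a2 (1424051_at) read 8.66 and 8.63 in vehicle females, 8.50 and 8.57 in TP females, 8.55 in vehicle males and 8.44 in the array labelled TP males. It separated the female groups but not all 6 arrays, with a difference of -0.11 (SE 0.06, adjusted p = 0.510). Of the 12 type IV probe sets, 7 were negative over both sexes and 5 positive, with a median of -0.040.

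**Figure D2:**
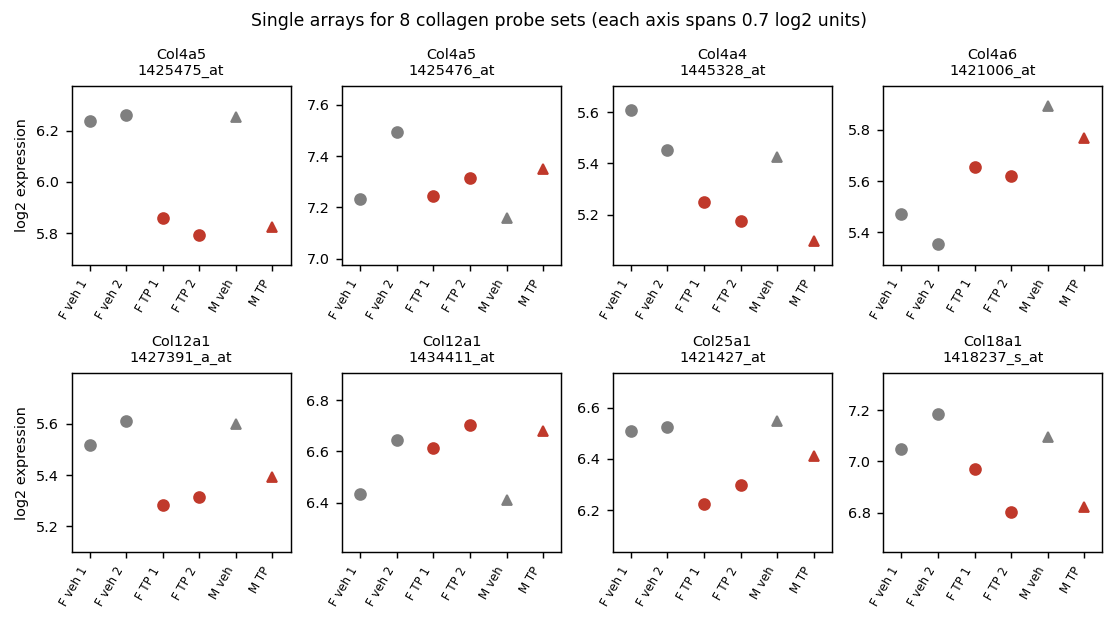
Log2 expression (y axis, each panel spanning the same range of log2 units) on each of the 6 arrays (x axis; F female, M male, veh vehicle; grey vehicle, red TP, circles female, triangles male) for 8 probe sets of 6 collagen genes. The TP arrays of Col4a5 1425475_at sit at 5.79 to 5.86 and its vehicle arrays at 6.24 to 6.26, while Col4a5 1425476_at and Col12a1 1434411_at do not repeat the lower TP values seen in the other probe set of their gene.

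The proteins that share the basement membrane with type IV collagen were read from a list of 16 genes, of which 15 were measured. None of the 15 passed the test. Each gene of a list was read by its probe set of highest mean, and over the 18193 genes read this way the median over both sexes was -0.029, 62.1% were negative, 10.3% had all TP arrays below all vehicle arrays and 4.69% had them above. Of the 15 basement membrane partners 13 were negative, with a median of -0.10, and 5 had all TP arrays below all vehicle arrays and 0 above. Lama4, the laminin alpha4 chain of vessel walls, read 7.01 and 6.82 in vehicle females, 6.68 and 6.63 in TP females, 7.01 in vehicle males and 6.65 in the array labelled TP males. Its difference of -0.29 had an adjusted p of 0.267, that in females was -0.26 (SE 0.10, adjusted p = 0.592), and the TP arrays did not overlap the vehicle arrays. Among 12 measured of 13 endothelial markers 10 were negative over both sexes, with a median of -0.068 and 0 called. The summed unlogged level of these endothelial markers was 4052 and 4165 in vehicle females, 3934 and 4143 in TP females, 3933 in vehicle males and 3760 in the array labelled TP males. For Pecam1, an adhesion protein of endothelial cells, the difference was -0.31 over both sexes (adjusted p = 0.282) and -0.19 without either male array (adjusted p = 0.623), so that leaving out the array labelled TP males or that of vehicle males makes it about 1.6 times smaller. Whether these marker levels had a part in the type IV values was not tested.

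Fibrillar collagens did not read uniformly lower after TP. In females 12 of the 21 fibrillar probe sets were positive and 9 negative, with a median of 0.047. In the single male pair 4 were positive and 17 negative, with a median of -0.089 (all probe sets -0.018). Over both sexes the median was -0.048, and 1 fibrillar probe set of 21, of Col3a1, had all TP arrays below all vehicle arrays (4.76%, against 8.35% of all). For the reader to see the upstream sequence of a chain from each side of this pattern, Col1a2 (chr6:4505368-4505617, plus strand) and Col3a1 (chr1:45311288-45311537, plus strand) are shown as 250 bases before the RefSeq start in GRCm38.p6, marked as above.
Col1a2: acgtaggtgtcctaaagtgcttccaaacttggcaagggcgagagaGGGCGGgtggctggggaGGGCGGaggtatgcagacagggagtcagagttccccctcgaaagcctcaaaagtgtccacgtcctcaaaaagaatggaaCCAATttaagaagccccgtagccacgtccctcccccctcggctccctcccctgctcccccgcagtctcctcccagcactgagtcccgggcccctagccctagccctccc
Col3a1: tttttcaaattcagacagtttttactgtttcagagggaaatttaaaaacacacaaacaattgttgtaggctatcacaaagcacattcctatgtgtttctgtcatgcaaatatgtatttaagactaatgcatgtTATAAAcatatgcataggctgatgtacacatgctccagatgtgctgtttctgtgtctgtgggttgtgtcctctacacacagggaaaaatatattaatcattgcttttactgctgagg

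The Col1a2 window is rich in G and C (62.0%) and holds 2 GC boxes and a CCAAT box, whereas the Col3a1 window (35.2%) holds a TATAAA 117 bases before the start. Type I collagen, the collagen of bone, skin and meninges, consists of the chains of Col1a1 and Col1a2. Probe set 1450857_a_at of Col1a2 read 10.83 and 10.85 in vehicle females, 10.91 and 10.97 in TP females, 10.93 in vehicle males and 10.53 in the array labelled TP males. TP females were above vehicle females by 0.10 (SE 0.08, adjusted p = 0.780), and the array labelled TP males was the lowest of the 6, 0.39 below vehicle males. A further Col1a2 probe set, 1423110_at, read 8.84 and 8.81, then 8.95 and 8.98, then 8.88 and 8.53 on the same arrays in the same order. It showed the same arrangement, with 0.14 in females (SE 0.08, adjusted p = 0.698) and -0.35 in males.

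For Col1a1 the probe set 1455494_at read 7.67 and 7.98 in vehicle females, 7.86 and 7.93 in TP females, 7.81 in vehicle males and 7.35 in the array labelled TP males. The female groups overlapped (0.07, SE 0.12), and the male difference was -0.46. Its probe set 1423669_at gave 0.05 in females and -0.53 in males. The difference between the TP effects of females and males was thus 0.50 (95% interval 0.16 to 0.83) and 0.49 (0.16 to 0.82) for Col1a2 and 0.53 (0.04 to 1.03) and 0.57 (0.01 to 1.14) for Col1a1, each with adjusted p = 1. This comparison rests on 1 array for each male group and cannot be fitted without the array labelled TP males. The dim Col1a2 probe set 1446326_at differed by -0.10 in females and -0.09 in males.

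Bone cell markers were read from the same arrays. Of 13 such markers 9 were measured. In females 1 of the 9, Ibsp (bone sialoprotein, a matrix protein of mineralising bone), passed the test. Over all 45037 probe sets 5 passed in females (0.0111%). Ibsp was dim by its mean over the 6 arrays. Over both sexes 0 of 9 passed, against 4 of all probe sets (0.00888%). Ibsp read 4.54 and 4.41 in vehicle females, 6.19 and 6.04 in TP females, 4.61 in vehicle males and 3.49 in the array labelled TP males. It rose by 1.64 in TP females (adjusted p = 0.048), and the difference between the TP effects of the sexes was 2.75 (adjusted p = 0.010). Both calls were lost on leaving out any 1 of the 4 female arrays, where the female difference ran from 1.56 to 1.71 (adjusted p from 0.347 to 1) and the difference between effects from 2.68 to 2.83 (adjusted p from 0.163 to 0.344). The summed unlogged level of the 9 markers was 381 and 380.0 in vehicle females, 521 and 532 in TP females, 405 in vehicle males and 348 in the array labelled TP males. The array labelled TP males thus held the lowest summed level. It was the lowest of the 6 for 3 of the 9 markers and for 4 of the 5 type I probe sets. Among all probe sets it was the lowest for 21%, and among those not dim for 27.4%. In females the median difference of the 9 markers was 0.49, with 6 positive and 3 negative, and the 4 type I probe sets that were not dim lay between 0.05 and 0.14. Of the 9 markers, 4 were dim, Ibsp among them. Whether bone tissue had a part in the type I values was not tested.

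**Figure D3:**
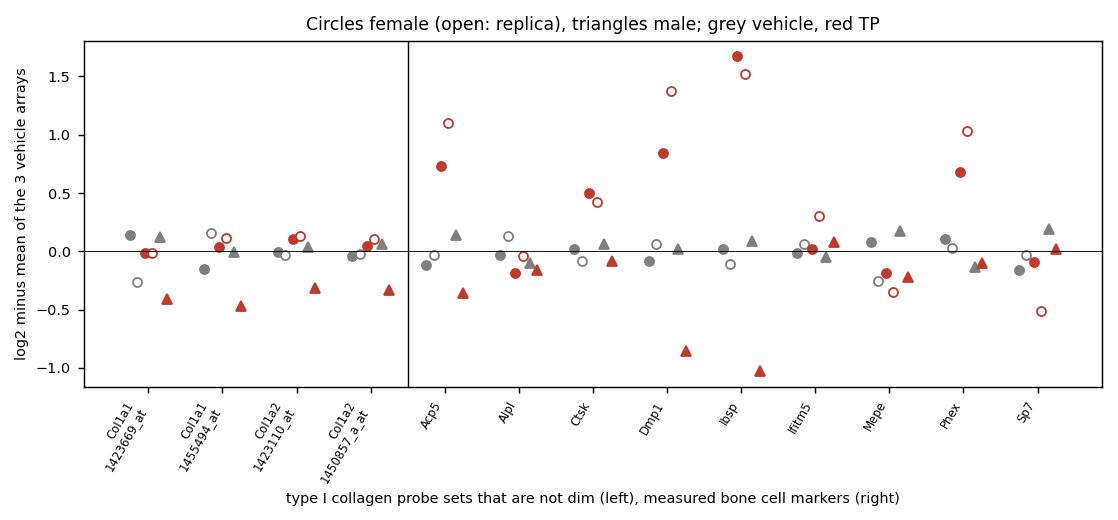
Log2 expression minus the mean of the 3 vehicle arrays (y axis) for the 4 type I collagen probe sets that are not dim (left) and the 9 measured bone cell markers (right); circles are female arrays (open circles the replica), triangles male arrays, grey vehicle and red TP. The red triangle of the array labelled TP males is the lowest of the 6 points for each type I probe set and for Ibsp, Dmp1 and Acp5. This array held the lowest value for 21% of all probe sets.

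Col3a1 encodes the single chain of type III collagen, which accompanies type I in vessel walls and soft tissue. Its probe set 1427883_a_at read 9.88 and 10.02 in vehicle females, 9.70 and 9.82 in TP females, 9.84 in vehicle males and 9.67 in the array labelled TP males. All TP arrays lay below all vehicle arrays, though the gap between the nearest arrays was small. The difference was -0.18 over both sexes (SE 0.07, 95% interval -0.34 to -0.02, adjusted p = 0.379) and -0.19 in females (SE 0.09, adjusted p = 0.657). The further probe set 1427884_at overlapped, at -0.05 over both sexes (SE 0.08).

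The minor fibrillar collagens V and XI, which set fibril diameter, gave female differences of either sign. For Col5a1, all 3 probe sets were negative in females, between -0.43 and -0.15. Its probe set 1416741_at read 5.68 and 5.25 in vehicle females, 4.88 and 5.19 in TP females, 5.24 in vehicle males and 5.37 in the array labelled TP males. The female groups did not overlap but the vehicle arrays themselves were 0.43 apart, and the difference of -0.43 had an SE of 0.17 (adjusted p = 0.606). Col5a2 (1450625_at) read 6.71 and 6.80 in vehicle females, 6.99 and 6.93 in TP females, 6.75 in vehicle males and 6.66 in the array labelled TP males. It was higher in both TP female arrays, by 0.21 (SE 0.08), and not in the male pair. The brighter Col5a2 probe set, 1422437_at, overlapped between the female groups, at 0.03 (SE 0.08), and gave -0.05 over both sexes. Col11a1 (1418599_at) read 6.74 and 6.71 in vehicle females, 6.91 and 6.94 in TP females, 6.77 in vehicle males and 6.68 in the array labelled TP males, which is the same arrangement. Its female difference was 0.20 (SE 0.08) and its male difference -0.09, and the further probe set 1449154_at gave 0.20 (SE 0.14) and -0.03 with overlapping female groups. Col5a3 (1419703_at) gave 0.25 in females (SE 0.11) and -0.18 in males, with both TP female arrays above both vehicle arrays. Its dim probe set 1425984_at gave -0.04 in females and 0.56 in males.

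Of the remaining fibrillar chains, Col2a1, the chain of cartilage collagen, gave 0.10 over both sexes (SE 0.07). Both probe sets of Col27a1 were lower in both TP female arrays than in both vehicle arrays, at -0.21 and -0.22 (SE 0.09 each), while their male differences were -0.06 and 0.02. The dim Col24a1 probe set overlapped between the groups. Among 12 measured cartilage markers 0 passed the test, and their summed level ran from 951 to 999 over the 6 arrays.

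**Figure D4:**
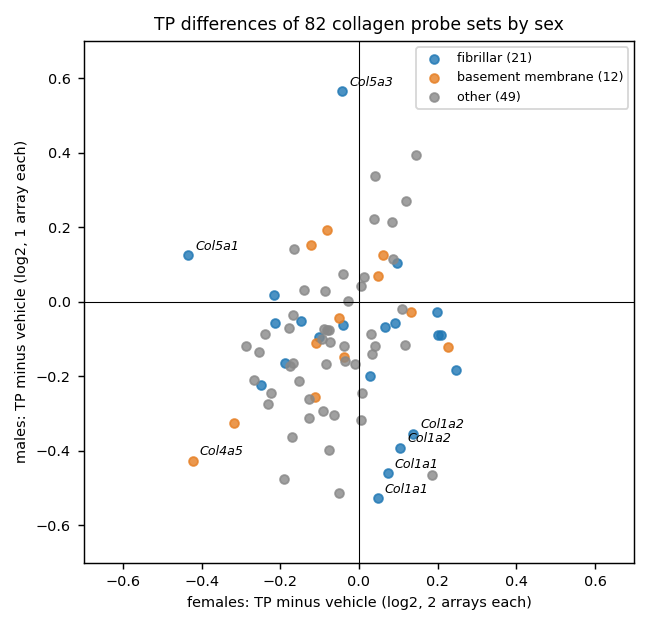
TP minus vehicle in females (x axis, log2, 2 arrays a group) against TP minus vehicle in males (y axis, log2, 1 array a group) for the 82 collagen probe sets, coloured by group. The 4 labelled type I probe sets lie right of 0 in females and at -0.35 to -0.53 in males, and Col4a5 lies at -0.42 and -0.43.

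The male pair had no replicate and so no test. Of the 82 collagen probe sets, 61 were lower in the array labelled TP males than in vehicle males (74.4%, against 54.3% of all probe sets), with a median of -0.10 (all -0.018). The difference had the same sign in females and males for 51 of 82 (62.2%, against 60.9% of all), and 40 were negative in both (48.8%, against 34.7%). The array labelled TP males held the lowest of the 6 values for 29 of 82 collagen probe sets (35.4%, against 21% of all probe sets) and for 26 of the 59 that were not dim (44.1%, against 27.4% of all that were not dim). Among fibrillar probe sets this count was 10 of 21. This is also the array whose Xist level went against its label, and whether the 2 are related was not tested.

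**Figure D5:**
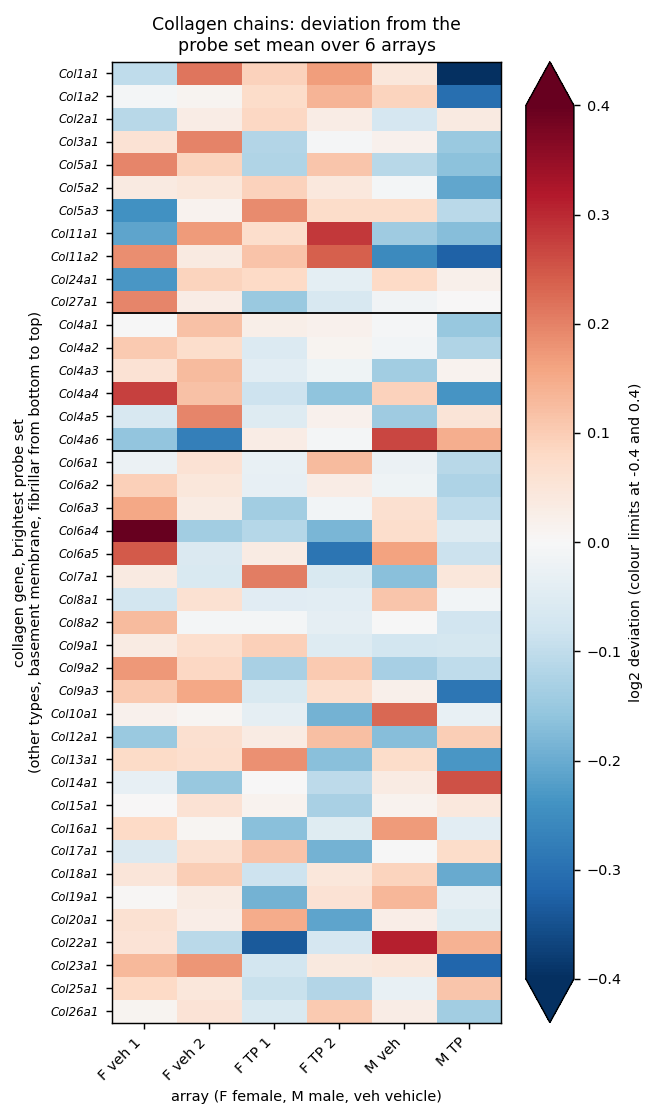
Deviation of each array (x axis; F female, M male, veh vehicle) from the mean over the 6 arrays in log2 units (colour) for the probe set with the highest mean of each of the 42 collagen genes (y axis, lines between the fibrillar, basement membrane and other genes). The column of the array labelled TP males is blue for Col1a1, Col1a2 and most other fibrillar genes. Its median deviation over the 42 genes is -0.081, against -0.030 over all 18193 genes read the same way.

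The other collagen types hold 49 of the 82 probe sets. Over both sexes 39 of the 49 were negative (79.6%, against 55.8% of all), with a median of -0.084, and 9 had all TP arrays below all vehicle arrays (18.4%, against 8.35% of all). FACIT collagens decorate the surface of fibrils. Col12a1, a FACIT chain of dense connective tissue, read 5.52 and 5.61 in vehicle females, 5.29 and 5.31 in TP females, 5.60 in vehicle males and 5.39 in the array labelled TP males by probe set 1427391_a_at. All TP arrays were lower, with a difference of -0.25 over both sexes (SE 0.06, 95% interval -0.39 to -0.10, adjusted p = 0.270) and -0.27 in females (SE 0.08, adjusted p = 0.555). Probe set 1434411_at of the same gene read 6.43 and 6.65, then 6.61 and 6.70, then 6.41 and 6.68 in the same order and differed by 0.17 (SE 0.08), in the other direction, and by 0.12 in females (SE 0.10). Its 2 dim probe sets gave -0.10 and 0.03.

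Col16a1 (1427986_a_at), a further FACIT chain, read 7.08 and 7.01 in vehicle females, 6.83 and 6.96 in TP females, 7.17 in vehicle males and 6.96 in the array labelled TP males. The TP arrays were lower, with a difference of -0.17 over both sexes (SE 0.07, adjusted p = 0.378) and -0.15 in females (SE 0.09, adjusted p = 0.699). For Col9a3, a chain of the type IX collagen of cartilage and the eye, the probe sets disagreed over both sexes, at 0.23 (1460693_a_at, SE 0.13), -0.19 (1460734_at, SE 0.07) and -0.12 (dim). In females they gave 0.14, -0.13 and -0.17. All 4 probe sets of Col20a1 were negative over both sexes, between -0.19 and -0.08, and overlapped between the groups of 3. The Col9a1 probe sets gave -0.08 and -0.02, Col9a2 -0.08 and the 3 of Col19a1 between -0.11 and 0.07. Col14a1, a FACIT chain of skin and tendon, gave 0.10 (1427168_a_at), -0.21 and -0.03, the latter 2 dim. Over the 24 FACIT probe sets 18 were negative and 6 positive, with a median of -0.084.

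Among the transmembrane collagens, Col25a1 encodes a collagen made by neurons that is known from amyloid plaques and motor nerve development. Its probe set 1421427_at read 6.51 and 6.52 in vehicle females, 6.22 and 6.30 in TP females, 6.55 in vehicle males and 6.41 in the array labelled TP males. The female groups were well apart and the male pair less so. TP minus vehicle was -0.26 in females (SE 0.08, 95% interval -0.45 to -0.06, adjusted p = 0.558) and -0.21 over both sexes (SE 0.07, adjusted p = 0.298). The other Col25a1 probe set, 1438540_at, read 7.46 and 7.43, then 7.29 and 7.27, then 7.35 and 7.49, so that it was lower in TP females (-0.17, SE 0.08) and higher in the array labelled TP males than in vehicle males.

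Col23a1, a transmembrane chain, read 7.21 and 7.26 in vehicle females, 7.01 and 7.12 in TP females, 7.13 in vehicle males and 6.77 in the array labelled TP males by probe set 1440911_at. The highest TP array and the lowest vehicle array were nearly level. Its difference was -0.24 over both sexes (SE 0.07, adjusted p = 0.303) and -0.17 in females (SE 0.09, adjusted p = 0.660). Its probe set 1429210_at instead gave 0.12 in females (SE 0.09), and 1429209_at gave -0.08 (SE 0.09). Col13a1, known from the neuromuscular junction, gave -0.14 over both sexes (SE 0.10) and -0.06 in females, and the dim Col17a1 probe set gave 0.00.

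Types XV and XVIII are proteoglycans of basement membranes, and the end of the Col18a1 product is released as endostatin, an inhibitor of vessel growth. Both Col18a1 probe sets separated all TP from all vehicle arrays. Probe set 1418237_s_at read 7.05 and 7.19 in vehicle females, 6.97 and 6.80 in TP females, 7.10 in vehicle males and 6.82 in the array labelled TP males. Its difference was -0.25 (SE 0.08, 95% interval -0.42 to -0.07, adjusted p = 0.302), and without the array labelled TP males -0.23 (SE 0.10, adjusted p = 0.623). Probe set 1426955_at read 7.54 and 7.59, then 7.41 and 7.54, then 7.58 and 7.29 in the same order, where a TP and a vehicle array were within 0.01 of each other, and differed by -0.16 over both sexes (SE 0.07, adjusted p = 0.441) and by -0.09 in females (SE 0.09, adjusted p = 0.831). Col15a1 gave -0.05 (SE 0.07).

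Network-forming Col8a1, a chain of vessel walls and of the cornea, was lower in all TP arrays by probe set 1418440_at. This probe set read 6.02 and 5.95 in vehicle females, 5.67 and 5.91 in TP females, 6.13 in vehicle males and 5.66 in the array labelled TP males. Its difference was -0.29 over both sexes (SE 0.09, adjusted p = 0.319). Without the array labelled TP males it was -0.19 (SE 0.10, adjusted p = 0.688). The further Col8a1 probe sets gave -0.07 (1455627_at, SE 0.07) and, dim, -0.02, and Col8a2 -0.08 (SE 0.07). Col10a1, the chain of growth plate cartilage, was dim, at 4.35 and 4.35 in vehicle females, 4.30 and 4.15 in TP females, 4.57 in vehicle males and 4.31 in the array labelled TP males.

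Beaded filament collagen VI surrounds many cells, and is made from the chains of Col6a1, Col6a2 and a further chain such as that of Col6a3. Col6a3 (1424131_at) read 7.22 and 7.10 in vehicle females, 6.93 and 7.05 in TP females, 7.13 in vehicle males and 6.96 in the array labelled TP males. All TP arrays were lower, with a difference of -0.17 over both sexes (SE 0.07, adjusted p = 0.402) and -0.17 in females (SE 0.09, adjusted p = 0.688). Col6a1 gave -0.01 (SE 0.07), and the Col6a2 probe sets -0.08 each (SE 0.06 and 0.08). The Col6a4 probe set 1429072_at gave -0.23 with an SE of 0.14, and 1 vehicle female array, at 5.90, stood above the other vehicle arrays at 5.34 and 5.55. The dim Col6a5 probe set gave the same difference, -0.23 (SE 0.11). Of the 7 type VI probe sets 6 were negative, with a median of -0.084. Col7a1, whose protein anchors the epidermis, gave 0.13 (SE 0.09), and Col26a1 gave -0.06 (SE 0.07) and, in its dim probe set, 0.14.

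Probe sets of the same gene often disagreed. Among the 27 collagen genes with more than 1 probe set, the differences had opposite signs in 14 in females and in 12 over both sexes. Dim probe sets took part in most of these cases. Between probe sets that were not dim, female signs were opposite only in Col9a3, Col12a1, Col19a1 and Col23a1. Over both sexes this held for the same genes and for Col4a5 and Col5a2. The share among all genes with several probe sets was not computed. Probe sets of 1 gene can report different ends or splice forms of its transcripts, and the annotation used here does not give those positions. Why the probe sets disagreed was not tested.

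Few collagen probe sets separated the sexes. The median of males minus females was -0.028 over the 82 collagen probe sets and -0.006 over all. Both male arrays lay above all 4 female arrays for 5 collagen probe sets (6.10%, against 8.58% of all) and below them for 5 (6.10%, against 11.2%). Col11a2, a chain of type XI collagen of cartilage, read 5.63 and 5.48 in vehicle females, 5.56 and 5.69 in TP females, 5.19 in vehicle males and 5.13 in the array labelled TP males. Males were lower by a clear margin, at -0.43 (SE 0.08, 95% interval -0.62 to -0.25, adjusted p = 0.305), and at -0.36 without the array labelled TP males (SE 0.12, adjusted p = 0.526). Col22a1, a FACIT chain of tissue junctions, read 5.05 and 4.89 in vehicle females, 4.66 and 4.93 in TP females, 5.31 in vehicle males and 5.13 in the array labelled TP males by probe set 1446851_at. Males were higher, by 0.34 (SE 0.09, adjusted p = 0.321), and by 0.34 without the array labelled TP males (SE 0.14).

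Col4a6 was also higher in males by probe set 1421006_at, by 0.31 (SE 0.09, adjusted p = 0.329), with every male array above every female array. Its size turned on the male arrays, at 0.48 without the array labelled TP males (adjusted p = 0.504) and 0.13 without vehicle males (adjusted p = 0.789). The other Col4a6 probe set, 1421007_at, gave 0.13 (SE 0.12) with overlapping arrays. Its X-linked neighbour Col4a5 differed by 0.00 between the sexes (SE 0.07) in probe set 1425475_at. Col14a1 (1427168_a_at) was higher in males by 0.22 (SE 0.08), of which 0.12 remained without the array labelled TP males (SE 0.11). The remaining probe sets that separated the sexes were Col4a3 1450224_at and Col20a1 1425236_at, both dim and higher, and Col4a1 1452035_at, Col5a2 1422437_at, Col9a1 1428571_at and Col23a1 1429210_at, which were lower by 0.11 to 0.17 (differences -0.12, -0.16, -0.11 and -0.17). For Col4a1 the vehicle male array (9.3582) and the lowest female array (9.3587) were nearly level, as were those of Col23a1 (5.9161 and 5.9199). Without the array labelled TP males, Col4a1, Col5a2 and Col23a1 lay at -0.06, -0.05 and -0.05, and Col9a1 at -0.12.

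The machinery that makes, trims and reads collagen gave 0 calls over both sexes. Among 19 measured of 20 biosynthesis enzymes and chaperones, 13 were negative and 6 positive, with a median of -0.022. All TP arrays lay below all vehicle arrays for 3 of the 19 (10.3% of all genes) and above for 0 (4.69%). P3h2, which was dim, differed by -0.21 over both sexes (adjusted p = 0.330) and -0.14 in females (adjusted p = 0.696). Plod3 differed by -0.16 (adjusted p = 0.429) and -0.11 in females (adjusted p = 0.799). Both had all TP arrays below all vehicle arrays. Serpinh1, the collagen-specific chaperone, read 9.13 and 9.38 in vehicle females, 9.44 and 9.42 in TP females, 9.17 in vehicle males and 9.24 in the array labelled TP males. Serpinh1 went the other way with a larger p, at 0.14 over both sexes (adjusted p = 0.537) and 0.17 in females (adjusted p = 0.713). Its groups of 3 overlapped. Of 10 measured of 13 processing and crosslinking genes, 8 were negative, with a median of -0.059. Loxl1, a lysyl oxidase that crosslinks matrix, read 6.10 and 6.09, then 5.94 and 5.94, then 6.29 and 5.82 in the same order. All TP arrays were lower, at -0.26 over both sexes (adjusted p = 0.307). Without the array labelled TP males, or without vehicle males, it was -0.15 (adjusted p = 0.670), about 1.7 times smaller.

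Of 10 measured of 11 collagen receptors, 6 were negative, with a median of -0.030. Itga2, the alpha subunit of a collagen-binding integrin, read 5.49 and 5.32 in vehicle females, 5.06 and 5.07 in TP females, 5.54 in vehicle males and 5.31 in the array labelled TP males. It was lower in all TP arrays, at -0.30 over both sexes (adjusted p = 0.258) and -0.34 in females (adjusted p = 0.543). The 10 collagen-degrading enzymes and inhibitors divided evenly, 5 negative and 5 positive, with a median of 0.004. In that list are Mmp13, a collagenase of bone and cartilage, and Ctsk, the collagen-cleaving cathepsin of osteoclasts, which is also a bone cell marker above. They gave 0.82 and 0.49 in females (adjusted p = 0.525 each). The list as a whole had 5 negative and 5 positive differences in females, with a median of -0.0008. In the male pair 7 were negative and 3 positive, with a median of -0.072. Among 13 measured of 14 fibril partners 8 were negative over both sexes, with a median of -0.027. In females 9 were positive and 4 negative, with a median of 0.039 (all genes -0.024). Both TP female arrays lay above both vehicle arrays for 5 of the 13 (13.4% of all genes) and below for 2 (24.7%). In the male pair 4 were positive and 9 negative, with a median of -0.13 (all genes -0.034).

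Other cell types that hold collagen were read from the same arrays, and none of their markers passed over both sexes. All 14 measured of 15 meningeal fibroblast markers were above the dim limit. Of these, 12 were negative, with a median of -0.067, and their summed level was 18960 and 21090 in vehicle females, 19190 and 19770 in TP females, 19300 in vehicle males and 18860 in the array labelled TP males. Pericyte and smooth muscle markers (11 measured) had a median of -0.028, choroid plexus markers (8 of 9) -0.087 and skeletal muscle markers (9) -0.010. Of the 10 skin and hair markers 9 were negative, with a median of -0.11, and 6 were dim. The hair keratin-associated gene Krtap16-3 read 4.14 and 3.83 in vehicle females and between 2.46 and 2.66 on the other 4 arrays. All of these readings lie under the dim limit, and 0 of the 10 skin and hair markers passed the test in females. The part of any of these cell types in the collagen values was not tested.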

How the data were processed

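The authors' deposited table gives log2 values for 45101 probe sets on each of the 6 arrays. It was made with RMA (background correction, normalization between arrays and summary of probes), per the submitters' processing notes, which give no version. Left out were 64 control probe sets; no scanner files were used, and the number of arrays limits the precision. Platform annotation gave 34945 probe sets 1 symbol, 932 several and 9160 none. All 82 collagen probe sets had the same symbol in RefSeq's GRCm38.p6 table.

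Fits used limma (3.58.1, R 4.3.3; lmFit, then eBayes without trend, two-sided, Benjamini-Hochberg over 45037 probe sets, threshold 0.05) on the 4 female arrays, on all 6 with sex and treatment as terms, and on 4 groups, where single male arrays are assumed to vary like female ones. The fit was tested on simulated data. Promoter windows and plots used Python (3.11.15), pandas (2.3.3) and matplotlib (3.10.9). Lists were read by the probe set of highest mean per gene.

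The members and lists were chosen with earlier results of these data known. Probe sets named were, per comparison and direction, the 6 largest differences among those not dim and not overlapping. The difference between effects had no overlap rule. The extremes of each class, types I to VI and genes whose probe sets disagree were also named. Up to 4 genes a list were named by p, with Serpinh1 beside them. Other members were named to account for all. Alternatives were 1 probe set per gene, single-symbol probe sets, no dim probe sets, renormalized or centred arrays, an intensity trend, a replicate block and leaving out each array.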

Additional observations from a re-analysis of the deposited data

How the results depend on the processing

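No collagen probe set passed the threshold under any alternative run. All 428 recomputed values of the probe sets named for the largest differences kept their direction. In the TP and sex comparisons these probe sets were chosen because their groups do not overlap. Leaving out an array could therefore not reverse them, and their kept direction is no measure of stability. Calls over all probe sets moved in number. In females (5 calls) they were 2 with single-symbol probe sets, 1 without dim ones, 8 after quantile normalization, 13 with centred arrays, 37 with an intensity trend, 2 with the replicate block, and 0 without any of the 4 arrays. Over both sexes (4) they were 0 with 1 probe set per gene and 0 with single-symbol ones, 1 without dim ones, 138 with a trend, 2 with the replicate block and 0 to 5 on leaving out an array (0 without either TP female array or the vehicle replica). Between the sexes (10) they were 3, 4, 1 and 49 for 1 probe set per gene, single-symbol, no dim and trend, and 7 to 19 on leaving out an array (19 without vehicle males). The difference between effects (7) gave 2 per gene, 4 without dim and 12 with a trend.

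The collagen median in females (-0.051) was -0.078 per gene (all genes -0.024) and -0.077 without dim probe sets (all not dim -0.0045). On leaving out an array it ran from -0.070 to -0.040. Over both sexes (-0.076) it ran from -0.084 to -0.051. Between the sexes (-0.028) it was -0.076 per gene (all genes -0.024) and -0.069 without dim ones (all not dim -0.036). It was -0.012 with the replicate block and -0.039 to -0.0018 on leaving out an array (-0.0018 without the array labelled TP males). For the difference between effects (0.008) it turned to -0.002 with centred arrays, and was 0.035 without dim ones and 0.036 to 0.059 without a female array, and for the male pair (-0.10) -0.12 without dim ones. The causes were not tested. The replica numbers are no pairing by the labels, and the female groups' original minus replica differences correlated at 0.106 across all probe sets, which share the arrays. The difference between effects could not be fitted without a male array. Dim probe sets, 23 of 82, limit what the lowest signals show.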
